A study of Homo sapiens with 6 samples.

Results

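The genes examined were those of the major histocompatibility complex (MHC) class II pathway: the alpha and beta chains HLA-DRA, HLA-DRB1, HLA-DPA1, HLA-DPB1, HLA-DQA1 and HLA-DQB1, the peptide-exchange subunits HLA-DMA and HLA-DMB, the invariant chain CD74, and CIITA, the coactivator of class II transcription. They were chosen by symbol and not by a rule on measured values, but with earlier results of these data known. All 10 symbols were found among the 21850 genes listed in the count table, and none was absent. Of the 10, 9 had enough reads to be tested and HLA-DQA1 did not. The cells were MM.1S, an established human multiple myeloma cell line, that is, a line of malignant plasma cells. RNA-seq was performed 3 days after lentiviral infection with a scramble short hairpin RNA in cells labelled WT (shNT, 3 libraries) or with a hairpin RNA against PRKCN in cells labelled PRKCN knockdown (shPRKCN, 3 libraries). The 2 groups differed in the labels by the hairpin alone, and the cell line was shared by all 6 libraries. The shPRKCN libraries carried the same name stem, no second hairpin was analysed here, and whether replicates came from separate cultures is not given in the sources used here, so p-values measure the spread between these libraries.

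MHC class II molecules present peptides from endosomes to CD4 T cells. Their chains are assembled in the endoplasmic reticulum with the invariant chain CD74, which fills the peptide groove and directs the complex to endosomes, where CD74 is trimmed by proteases and HLA-DM exchanges its last fragment for other peptides. Transcription of the class II genes and CD74 needs CIITA, which does not bind DNA itself but docks on the factors RFX, CREB and NF-Y at a conserved promoter module of X and Y boxes. When B cells become plasma cells, CIITA and the class II genes are usually shut off, with PRDM1 (Blimp-1) as a repressor of CIITA.

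Class II transcripts were present in MM.1S cells and were lower after PRKCN knockdown. All 9 tested genes were lower in shPRKCN than in shNT libraries at a Benjamini-Hochberg adjusted p under 0.05 with edgeR's quasi-likelihood test, and 5 of them (CIITA, HLA-DRA, HLA-DRB1, HLA-DPB1 and HLA-DQB1) also passed the fold limit, a log2 fold change beyond 0.58. None was higher. CIITA RNA was left at 39.97% of its shNT level, the summed classical chains, mostly HLA-DRA, at 57.2% and CD74 at 75.0%. Over all 13971 tested genes, 10.6% were called lower and 6.15% higher at both limits, and 27.8% were lower and 26.5% higher by adjusted p alone. The median log2 fold change was -0.86 over the 9 tested genes and 0.00 over all tested genes. These are bulk libraries, so fewer cells carrying a transcript and less of it per cell cannot be told apart.

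The hairpin's target was checked first. PRKCN, listed under its current symbol PRKD3, was counted 44913, 47712 and 45531 times in shNT libraries and 19979, 18253 and 19998 times in shPRKCN libraries, a log2 fold change of -1.29 (SE 0.03, adjusted p = 8.2e-43, edgeR). Each library fell on the side its label gives. Library totals ran from 35625564 to 37730003 counts, and a count of 3 was taken as the floor of detection.

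Promoter sequence is shown first, so that these genes, which changed in the same direction, can be read side by side. RefSeq (GRCh38.p14) promoters, from 250 bases before to 50 after each gene start, were matched for 8 of the 10 genes, with 9 promoters in all. Those of HLA-DRA and CIITA were not matched. An X box spelled CNAGNNACNGATG, on either strand, was found in 4 of the 9 promoters and in 0.142% of all 35116 promoters, and these letters were chosen after looking at class II promoters. The stretches below are printed 5′ to 3′ on the strand of the gene, all of them the minus strand, and capitals mark the X box and the nearest CCAAT core downstream (ATTGG, or CCAAT on the other strand).

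HLA-DRB1, chr6:32589885-32589934: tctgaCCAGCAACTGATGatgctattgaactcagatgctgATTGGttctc

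HLA-DQB1, chr6:32666736-32666785: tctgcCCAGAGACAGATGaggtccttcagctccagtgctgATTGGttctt

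HLA-DMA, chr6:32953167-32953217: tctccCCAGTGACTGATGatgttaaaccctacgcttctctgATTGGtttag

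HLA-DMB, chr6:32941101-32941123: tttacCTAGTAACTGATGatgct

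CD74, chr5:150412954-150412998: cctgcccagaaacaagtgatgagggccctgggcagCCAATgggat

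In HLA-DRB1, HLA-DQB1 and HLA-DMA the X box and the CCAAT core lay 22, 22 and 23 bases apart. HLA-DMB did not share this spacing, since its X box began 90 and its core 22 bases before the gene start, and its core lies outside the printed stretch. The X box began 81 bases before the gene start in HLA-DRB1, 123 in HLA-DQB1, 115 in HLA-DMA and 90 in HLA-DMB, as the map of promoter matches shows. A Y box spelled CTGATTGG, on either strand, was found in 3 of the 9 promoters, those of HLA-DRB1, HLA-DQB1 and HLA-DMA, and in 3.97% of all promoters. The CCAAT core, which every Y box contains, was found in 7 of the 9 and in 34.6% of all promoters. The promoters of HLA-DPB1, HLA-DQA1 and CD74 held the core without an exact X box, and neither promoter of HLA-DPA1 held any of these letters. Genes with and without an exact X box were both among those called lower (HLA-DRB1 and HLA-DQB1 with one, HLA-DPB1 without) and among those under the fold limit (HLA-DMA and HLA-DMB with one, HLA-DPA1 and CD74 without). A match is a description of letters and not evidence of binding.

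**Figure D1:**
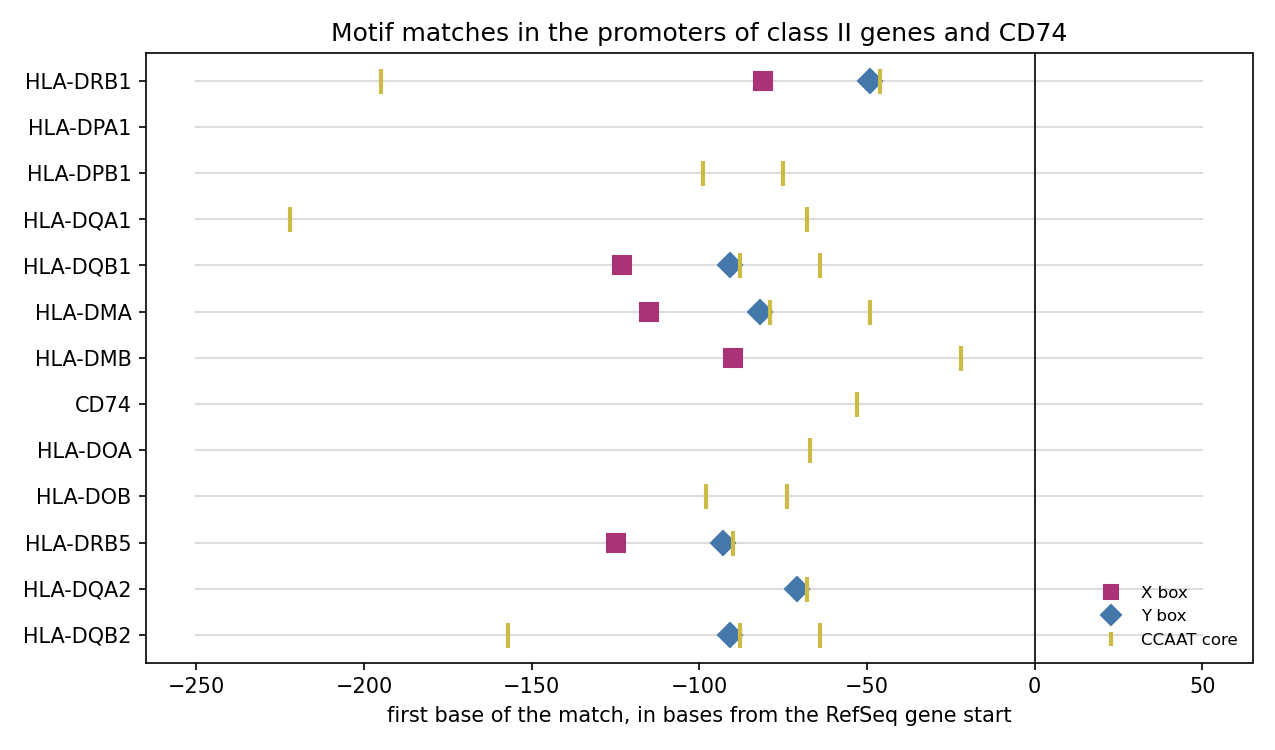
Positions of X box, Y box and CCAAT core matches in RefSeq promoters of class II genes and CD74. The horizontal axis gives the first base of each match in bases from the gene start and each row is 1 gene. The X boxes of HLA-DRB1, HLA-DQB1, HLA-DMA and HLA-DMB sit 81 to 123 bases before the start, and HLA-DPA1 shows no match.

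The level of each gene was compared per length, in the FPKM values that the authors deposited (counts scaled to gene length and library total). CD74 had the highest level, at 1176, 1173 and 1199 FPKM in shNT libraries, and it ranked 59 among the listed genes. HLA-DRA followed with a mean of 368 ± 5.37 FPKM (SD, n = 3), HLA-DPA1 with 56.4 ± 0.840 and HLA-DMA with 36.0 ± 2.67. HLA-DRB1 (14.8 ± 0.871), HLA-DPB1 (10.5 ± 0.569), HLA-DMB (8.48 ± 0.222) and CIITA (3.36 ± 0.176) were lower, and the DQ chains were the lowest, with 0.528 ± 0.132 for HLA-DQB1 and 0.0947 ± 0.0858 for HLA-DQA1. No 2 neighbours in this order overlapped between shNT libraries. By these counts the libraries held RNA of the DR and DP pairs and of the DM pair, and little of DQ. Whether reads of alleles unlike the reference (GRCh38.p14) were missed was not tested.

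In shPRKCN libraries CD74 stood first at 899 ± 24.9 FPKM and HLA-DRA second at 205 ± 5.52, and their ranks among listed genes moved from 59 to 72 and from 147 to 218. HLA-DMB (6.77 ± 0.404) and HLA-DPB1 (5.66 ± 0.114) exchanged places in the order. HLA-DRB1, at 6.14, 7.32 and 7.09 FPKM, overlapped HLA-DMB at 7.17, 6.37 and 6.77, and HLA-DQB1 overlapped HLA-DQA1. The lengths behind the deposited FPKM were near those of the longest GENCODE coding transcripts for most genes, but were 19800 bases for CIITA against 16059 and 3991 bases for HLA-DPB1 against 1560. A shorter length would raise the FPKM of these genes and could change the places of both in the order. The comparison between groups uses the same length on both sides.

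**Figure D2:**
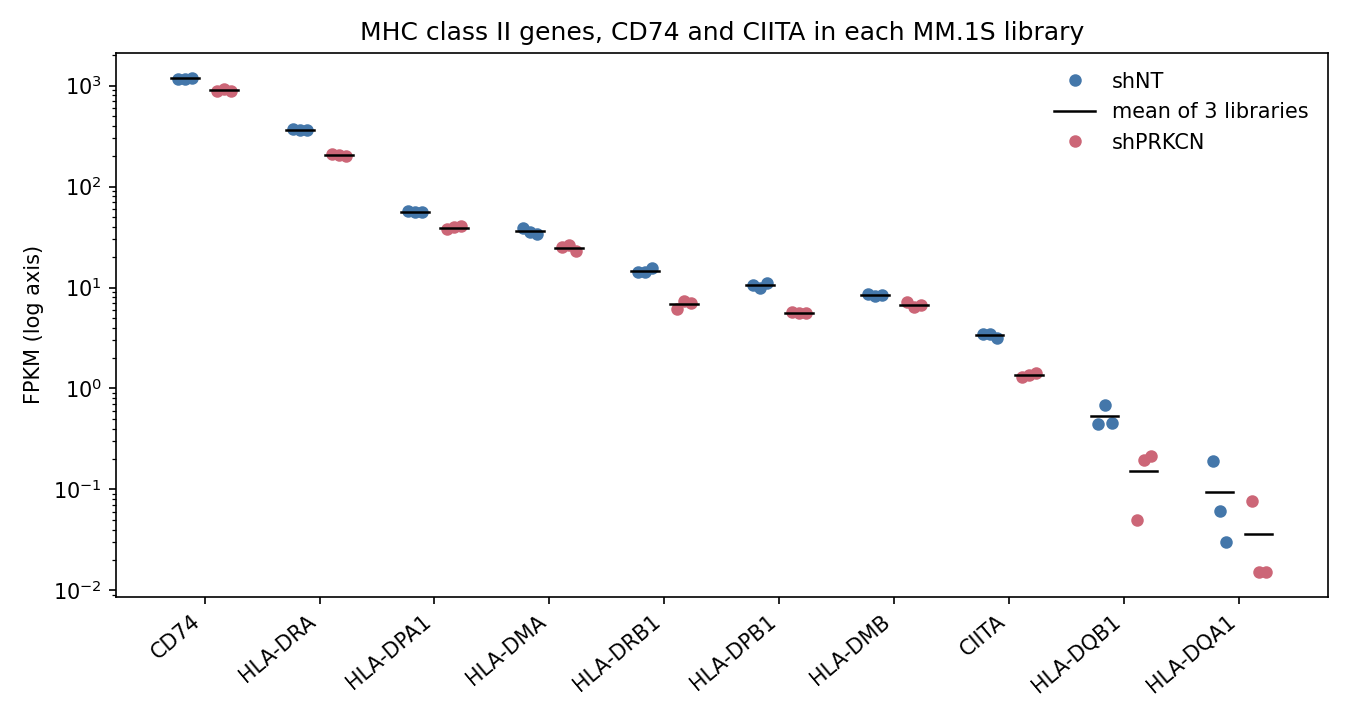
FPKM of the 10 genes in each library, on a log axis, with genes in the order of their shNT mean. Points are libraries and black lines are means of 3 libraries. All 3 shPRKCN points lie below all 3 shNT points for every gene but HLA-DQA1.

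CIITA (chr16:10866206-10943021) encodes the coactivator on which the class II promoters depend. It was counted 2446, 2525 and 2357 times in shNT libraries and 951, 1005 and 1056 times in shPRKCN libraries. The groups were far apart and the libraries within each group were close. Scaled to library size (CPM), its level went from 67.0 ± 3.49 to 26.8 ± 1.19 (SD, n = 3), a log2 fold change of -1.32 (SE 0.05, adjusted p = 1.77e-32, edgeR). Only 2.27% of tested genes had a lower log2 fold change. The gene overlaps DEXI, which had at most 882 counts in a library, and 11.5% of the 50-base stretches of its GENCODE transcripts occur in transcripts of other genes, most of them in an entry inside the same locus (AC133065.3). The strandedness of the counting is not given in the sources used here, so reads of CIITA and of overlapping entries could not be separated.

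HLA-DRA was the most abundant classical chain. The order of the beta chains depended on the measure. In shNT libraries HLA-DPB1 had a higher CPM than HLA-DRB1 (42.3 against 18.2) and a lower FPKM (10.5 against 14.8). HLA-DRA (chr6:32439887-32445046) encodes the DR alpha chain, which pairs with every DR beta chain. Its counts were 16424, 16553 and 17091 in shNT and 9535, 9588 and 9206 in shPRKCN libraries. The highest shPRKCN value was well under the lowest shNT value. Its CPM went from 457 ± 7.48 to 252 ± 8.31, which left 55.1%, with a log2 fold change of -0.86 (SE 0.03, adjusted p = 5.75e-33, edgeR). No 50-base stretch of its transcripts occurs in another gene, so its value carries no such uncertainty.

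HLA-DRB1 (chr6:32578775-32589848) encodes the DR beta chain of all class II haplotypes. It had 624, 641 and 727 counts in shNT and 277, 335 and 325 in shPRKCN libraries, so that the lowest shNT count was above the highest shPRKCN count. Its CPM went from 18.2 ± 1.08 to 8.33 ± 0.820, leaving 45.8%, and the log2 fold change was -1.13 (SE 0.09, adjusted p = 3.47e-17, edgeR). Of its 50-base stretches 9.92% are shared with other genes, 8.64% with HLA-DRB5. HLA-DRB5 itself was listed with 7, 3 and 1 counts in shNT and 0, 6 and 43 counts in shPRKCN libraries and was not tested. The 43 counts of 1 shPRKCN library would not bring HLA-DRB1 of that library, at 325, to the lowest shNT count of 624.

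The HLA-DP pair is encoded by overlapping genes on opposite strands. HLA-DPA1 (chr6:33064569-33080748), the alpha chain, was counted 3576, 3640 and 3678 times in shNT and 2444, 2579 and 2658 times in shPRKCN libraries. HLA-DPB1 (chr6:33075990-33089696), the beta chain, was counted 1493, 1470 and 1672 times and 850, 844 and 829 times. In neither gene did the groups overlap. HLA-DPA1 was left at 68.6% of its shNT CPM, with a log2 fold change of -0.54 (SE 0.04, adjusted p = 1.01e-17, edgeR), which did not pass the fold limit. HLA-DPB1 was left at 53.0%, with a log2 fold change of -0.92 (SE 0.06, adjusted p = 6.61e-22), which did. Without strand information, reads in the stretch that both genes cover could not be assigned to either.

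HLA-DQ RNA was at the edge of detection. HLA-DQB1 (chr6:32659467-32666657), the DQ beta chain, had 26, 41 and 28 counts in shNT and 3, 12 and 13 in shPRKCN libraries. The groups did not overlap, but the lowest shPRKCN library was at the floor. The log2 fold change was -1.79 with an SE of 0.45 (adjusted p = 5.05e-04, edgeR), the widest error of the tested genes. On log2(FPKM + 1), where the pseudocount exceeds the level of the gene, limma gave -0.41, which is under the fold limit. HLA-DQA1 (chr6:32637406-32655272), the DQ alpha chain, had 12, 4 and 2 counts in shNT and 5, 1 and 1 in shPRKCN libraries. The groups overlapped, and a difference in HLA-DQA1 was not detectable at this depth (log2 fold change -1.36, SE 0.99, adjusted p = 0.329 with edgeR and no filter on low counts).

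HLA-DM does not present peptides but removes the last invariant chain fragment from the groove and edits the peptides bound there. HLA-DMA (chr6:32948618-32953097) had 1519, 1422 and 1397 counts in shNT and 1013, 1077 and 953 in shPRKCN libraries. HLA-DMB (chr6:32934636-32941028) had 419, 413 and 429 counts against 357, 321 and 342. In both genes the highest shPRKCN count was under the lowest shNT count. HLA-DMA was left at 68.2% (log2 fold change -0.55, SE 0.06, adjusted p = 3.38e-12, edgeR) and HLA-DMB at 78.7% (-0.35, SE 0.10, adjusted p = 0.00254), so neither passed the fold limit. HLA-DMA came close to it and passed at -0.59 without shNT library 3 and at -0.60 without shPRKCN library 2. Of their 50-base stretches, 4.52% of HLA-DMA and 8.0% of HLA-DMB are shared with a GENCODE entry that overlaps part of both genes (AL645941.2).

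CD74 (chr5:150401639-150412910), the invariant chain, lies outside the MHC. Its counts were 82436, 85275 and 88989 in shNT and 64425, 68248 and 65038 in shPRKCN libraries, with no overlap. Its CPM went from 2343 ± 29.8 to 1758 ± 67.7, a log2 fold change of -0.41 (SE 0.03, adjusted p = 1.87e-18, edgeR), under the fold limit. CD74 had the smallest relative standard deviation of the 10 genes in shNT libraries, and its change was larger than the spread between replicates although small beside that of CIITA. Of all tested genes 17.8% had a lower log2 fold change than CD74, against 6.63% for HLA-DRA and 21.0% for HLA-DMB.

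**Figure D3:**
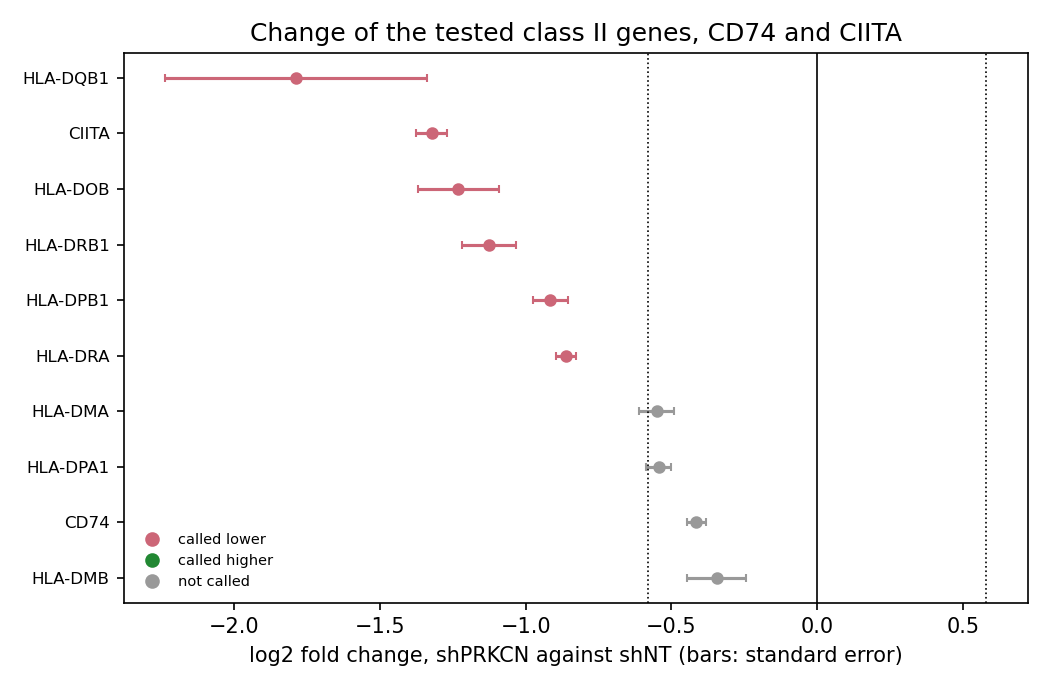
Log2 fold change of shPRKCN against shNT for the tested class II genes, CD74 and CIITA, with bars for the standard error (edgeR, 3 libraries per group). Dotted lines mark the fold limit of 0.58 in each direction. The points run from -1.79 for HLA-DQB1 to -0.35 for HLA-DMB and all lie left of 0, with HLA-DMA, HLA-DPA1, CD74 and HLA-DMB inside the limit.

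In all 9 tested genes the 3 shPRKCN libraries lay below the 3 shNT libraries, a pattern seen in 29.8% of all tested genes. The size of the change was not the same across them. CIITA, HLA-DRB1, HLA-DPB1 and HLA-DRA were left at 39.97% to 55.1% of their shNT CPM, whereas HLA-DMA, HLA-DPA1, CD74 and HLA-DMB were left at 68.2% to 78.7%.

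Values taken within a library gave the balance between the parts of the pathway. The 6 classical chains summed to 456, 444 and 450 FPKM in shNT and to 259, 260 and 252 FPKM in shPRKCN libraries, a log2 difference of -0.81. The shPRKCN sums were close to each other and well below the shNT sums. HLA-DRA made up most of each sum, with a mean of 368 of 450 FPKM in shNT and 205 of 257 in shPRKCN libraries. The sum and the ratio below therefore mostly follow HLA-DRA. CD74 per unit of these chains was 2.58, 2.64 and 2.67 in shNT and 3.43, 3.57 and 3.50 in shPRKCN libraries, a log2 difference of 0.41. There was thus more CD74 RNA per classical chain RNA in every shPRKCN library, although CD74 itself was lower. For each of these values the exact two-sided permutation test gave p = 0.1, the smallest that 3 against 3 libraries allow.

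Further ratios were chosen after their values had been seen. HLA-DRB1 per HLA-DRA was 0.0384, 0.0391 and 0.0430 in shNT and 0.0293, 0.0353 and 0.0356 in shPRKCN libraries (log2 difference -0.27, or -0.18 without shPRKCN library 1), and HLA-DPB1 per HLA-DPA1 was 0.183, 0.177 and 0.199 against 0.153, 0.143 and 0.137 (-0.37). In both pairs the beta chain was lower relative to its alpha chain in every shPRKCN library. CIITA per CD74 was 0.00284 ± 0.000181 in shNT and 0.00151 ± 8.57e-05 in shPRKCN libraries (SD, n = 3), a log2 difference of -0.91. These too have p = 0.1 in the exact permutation test and are given as a description.

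The remaining class II genes were few. HLA-DOB, the beta subunit of the inhibitor of HLA-DM, had 301, 256 and 297 counts in shNT and 129, 112 and 133 in shPRKCN libraries. Its log2 fold change was -1.23 (SE 0.14, adjusted p = 6.49e-12, edgeR), and it was the 1 tested gene of a list of 10. HLA-DOA, its partner chain, had 0, 2 and 1 counts in shNT libraries and 0 in each shPRKCN library. HLA-DQA2 had at most 6 counts and HLA-DQB2 at most 15 in a library, and HLA-DRB3, HLA-DRB4, HLA-DRB6, HLA-DPA2 and HLA-DPB2 were not listed.

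The class II genes other than CD74 and CIITA lie together on chromosome 6, so their neighbours were examined. RefSeq (GRCh38.p14) places 34 entries from BTNL2 to HLA-DPB1, of which 15 were tested, 7 of them among the 10 genes described here. Of the 8 others, 2 were called lower, HLA-DOB and the long noncoding RNA LOC100294145 (-0.67, adjusted p = 9.11e-10, edgeR), and 0 were called higher. Over all tested genes 10.6% were called lower and 6.15% higher. The class I processing genes between HLA-DOB and HLA-DMB stayed under the fold limit. TAP1 and TAP2, the peptide transporter subunits, had log2 fold changes of 0.18 and -0.13 (adjusted p = 1.5e-04 and 0.0039), and the immunoproteasome subunits PSMB8 and PSMB9 had -0.03 and -0.02 (adjusted p = 0.525 and 0.814). BRD2, between HLA-DMA and HLA-DPA1, had -0.16. The antisense RNA PSMB8-AS1 had -0.36 (adjusted p = 1.29e-04), about as low as HLA-DMB at -0.35. All 7 tested genes of the group in this region were lower by adjusted p, and 5 of the 8 others were, against 27.8% of all tested genes. HLA-DOB, itself a class II gene, is among these 5.

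**Figure D4:**
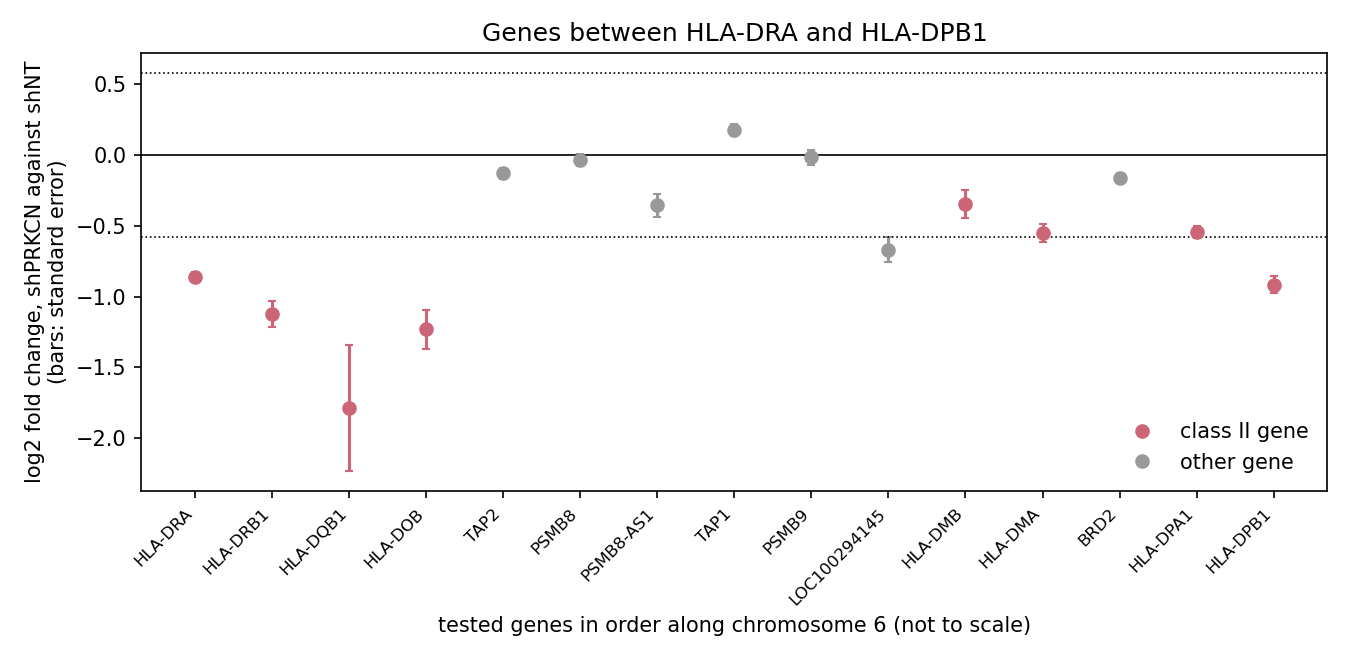
Log2 fold change of the 15 tested genes from HLA-DRA to HLA-DPB1, in their order on chromosome 6 and not to scale, with bars for the standard error and dotted lines at 0.58 in each direction. Class II genes lie from -1.79 to -0.35. TAP2, PSMB8, TAP1, PSMB9 and BRD2 lie between -0.16 and 0.18, and the other neighbours PSMB8-AS1 (-0.36) and LOC100294145 (-0.67) lie within the range of the class II genes.

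The DNA-binding factors on which CIITA docks changed little beside CIITA. Of 8 such factors 0 passed the fold limit, where 10.6% of all tested genes were called lower and 6.15% higher. By adjusted p 3 were lower and 1 was higher, against 27.8% and 26.5% of all tested genes. The median log2 fold change of these factors was -0.15. RFX5, the subunit of RFX that contacts the X box, had -0.27 (adjusted p = 6.14e-09, edgeR), its partner RFXANK had 0.02 (adjusted p = 0.753) and RFXAP had -0.25 (adjusted p = 0.0727). CREB1 (-0.26) and ATF1 (-0.27), which bind beside RFX at the X box, were lower, with adjusted p = 7.08e-06 and 7.29e-05. The NF-Y subunits, which bind the CCAAT core, had -0.05 for NFYA, -0.04 for NFYB and 0.13 for NFYC, of which NFYC passed (adjusted p = 0.0475). CIITA at -1.32 thus lay below each of these 8 DNA-binding factors.

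Among 10 cofactors that CIITA recruits, 9 were tested, and KAT2B alone passed the fold limit. Over all tested genes 10.6% were called lower, so 1 of 9 is near that share. KAT2B (PCAF), an acetyltransferase, had 3101, 3210 and 3220 counts in shNT and 1206, 1118 and 1164 in shPRKCN libraries, with a log2 fold change of -1.49 (SE 0.05, adjusted p = 1.59e-37, edgeR). The acetyltransferases CREBBP (0.15) and EP300 (0.18), the methyltransferase CARM1 (0.32) and the coactivator NCOA3 (0.13) were higher by adjusted p and under the fold limit. By adjusted p 26.5% of all tested genes were higher.

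Interferon-γ is the classical inducer of CIITA and acts through JAK kinases and IRF1. Of 9 genes of this route 1 was called lower, JAK2 (-0.81, adjusted p = 2.32e-11, edgeR), near the 10.6% of all tested genes. Another 4 were higher by adjusted p and under the fold limit, where 26.5% of all tested genes were higher by adjusted p. These were the receptor chains IFNGR1 (0.33) and IFNGR2 (0.49), the kinase JAK1 (0.25) and the transcription factor IRF1 (0.45). IRF2 (-0.05, adjusted p = 0.326), USF1 (0.07, 0.159) and the inhibitor SOCS1 (0.16, 0.689) did not pass. The median log2 fold change of this list was 0.16, whereas CIITA and all tested class II genes were below 0.

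Regulators of CIITA in B cells and plasma cells moved in both directions. IRF4, which acts at the B cell promoter of CIITA and is needed by myeloma cells, had 22388, 23118 and 22846 counts in shNT and 6585, 6438 and 6455 in shPRKCN libraries, a log2 fold change of -1.85 (SE 0.03, adjusted p = 5.66e-52, edgeR). SPI1 (PU.1), a partner of IRF4 on DNA, had 270, 254 and 250 counts against 403, 400 and 454 and was called higher at 0.66 (adjusted p = 2.76e-07). PRDM1, the plasma cell repressor of CIITA, was itself lower at -0.54 (adjusted p = 3.42e-22), under the fold limit, as were IRF8 at -0.22 (adjusted p = 0.0442) and TCF3 at -0.14 (adjusted p = 2.91e-04). SPIB (0.21, adjusted p = 0.707) and EBF1 (-0.14, adjusted p = 0.743) did not pass, PAX5 had at most 2 counts in a library, and ZBTB32 was not listed. IRF4 and CIITA were both called lower, and whether the change in one bears on the other was not tested.

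**Figure D5:**
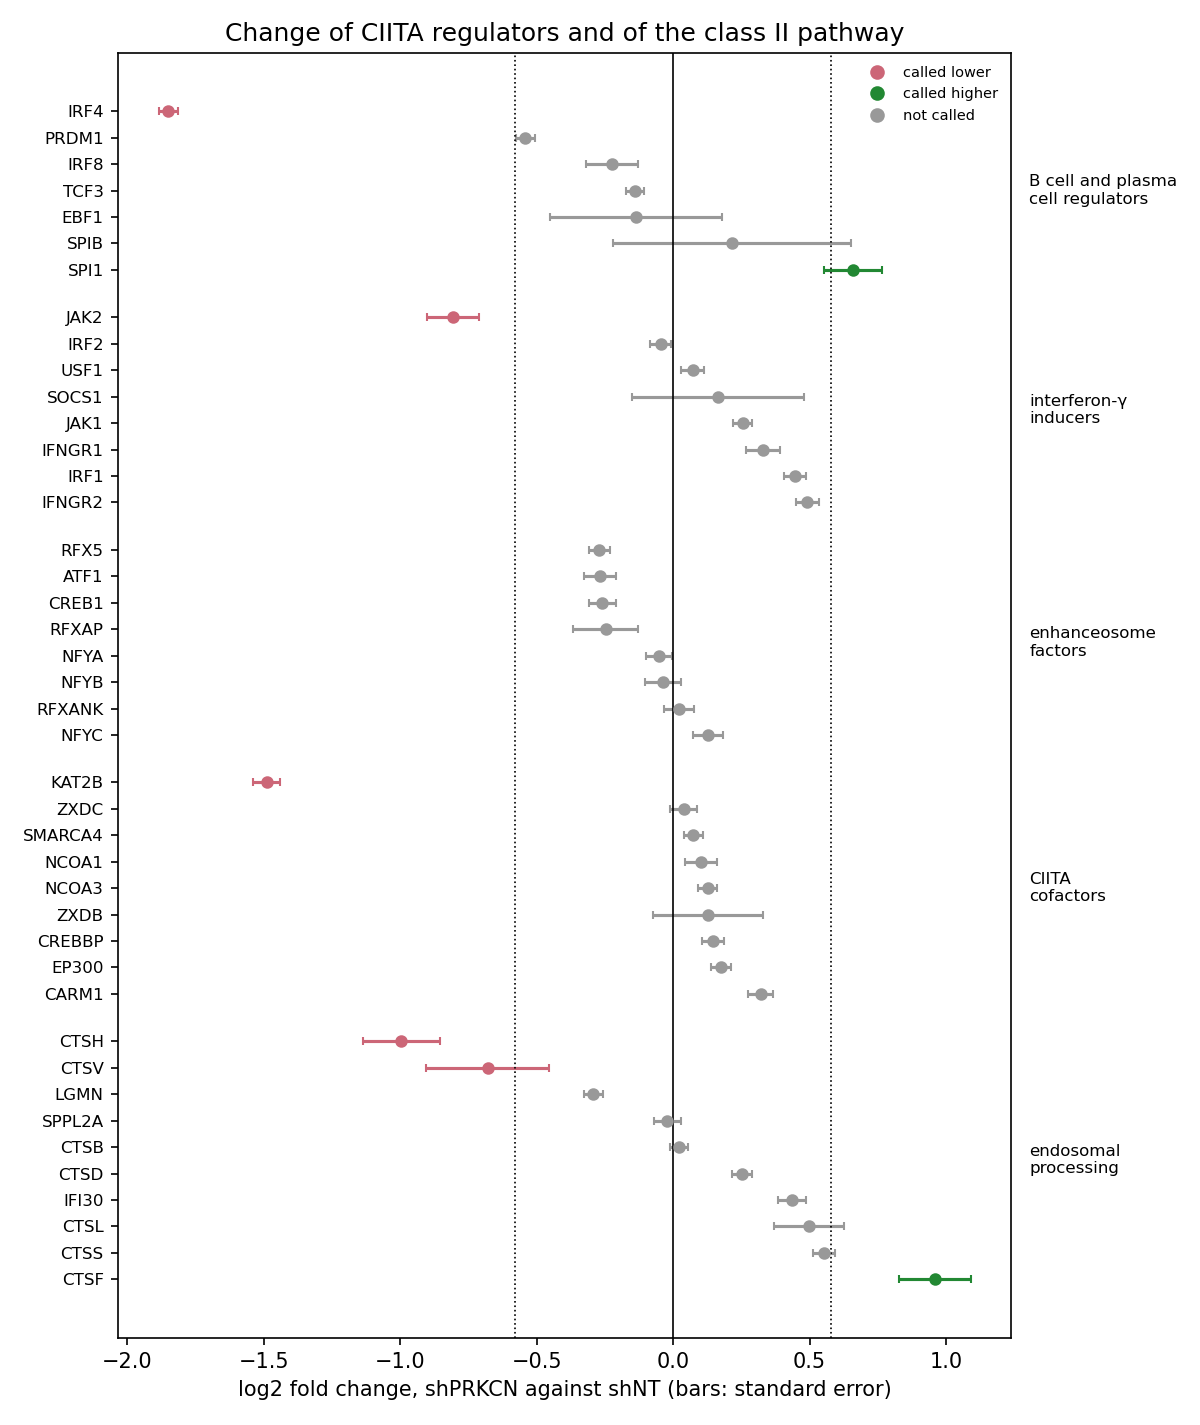
Log2 fold change of tested regulators of CIITA, of its partners on DNA, of its cofactors and of the endosomal proteases that serve class II loading, with bars for the standard error and dotted lines at 0.58 in each direction. IRF4 (-1.85), KAT2B (-1.49), CTSH (-0.996), JAK2 (-0.81) and CTSV (-0.68) are called lower, and SPI1 (0.66) and CTSF (0.96) are called higher.

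The endosomal enzymes that prepare class II molecules for loading moved in both directions. Of 10 such genes 5 were higher and 3 lower by adjusted p, against 26.5% and 27.8% of all tested genes. The median log2 fold change was 0.14. CTSS, the main protease of invariant chain trimming, had 0.55, just under the limit, and IFI30, which reduces disulfide bonds of antigens, had 0.44. CTSF (0.96) was called higher, and CTSH (-0.996) and CTSV (-0.68) were called lower, against 6.15% and 10.6% of all tested genes. CTSL (0.50) and CTSD (0.25) were higher and LGMN (-0.29) lower by adjusted p alone. HLA-DMA and HLA-DMB, which act in the same compartment, were both lower.

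Of 6 genes for turnover of surface class II or for signalling through CD74, 5 were tested, 1 was called lower and 0 were called higher. CXCR4, a partner of CD74 as a receptor for the cytokine MIF, was called lower at -0.74, and MIF (-0.49) and CD44 (-0.13) were lower by adjusted p. MARCHF8, a ubiquitin ligase that removes proteins from the surface, was higher at 0.45. Of 8 costimulatory and adhesion genes that act beside class II at the T cell contact, CD86 (0.70) and ICAM1 (0.68) were called higher and CD274 (-0.68) lower. Among all tested genes 6.15% were called higher and 10.6% lower. The CD274 call was lost without shNT library 2 or 3 and without shPRKCN library 2 or 3, with log2 fold changes of -0.62, -0.58, -0.55 and -0.68.

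Class II genes are expressed by B cells, monocytes and dendritic cells as well, so markers of these cells were read beside them. Of 9 plasma cell markers 9 were listed, and they summed to 5826 to 5952 FPKM in shNT and 5298 to 5525 in shPRKCN libraries, a sum made mostly of JCHAIN (0.01). Of these 9, 4 were called lower, IRF4 (-1.85), XBP1 (-1.28), TNFRSF17 (-1.13) and SLAMF7 (-0.97), against 10.6% of all tested genes. By adjusted p 6 were lower and 1 was higher, against 27.8% and 26.5%, and the median log2 fold change was -0.54. Of 8 monocyte and dendritic cell markers, 6 were listed, summing to 0.667 to 1.40 and 0.538 to 0.798 FPKM, with CD14 at 9 or fewer counts and LYZ at 2 or fewer. Most of this sum was CLEC9A, with 34, 75 and 56 counts in shNT and 36, 38 and 24 in shPRKCN libraries, which overlapped, and it was called lower (-0.78, adjusted p = 0.0274, edgeR), a call not made by DESeq2 (adjusted p = 0.0663) nor without shNT library 2 (-0.49, adjusted p = 0.262), shNT library 3 (-0.78, 0.0578) or shPRKCN library 3 (-0.59, 0.141). Of 8 B cell markers, 6 were listed, and they summed to 23.5 to 25.5 FPKM in shNT and 42.7 to 45.1 in shPRKCN libraries. CR2 (1.23) and CD79B (0.72) were called higher, and MS4A1, CD22 and PAX5 had 8 or fewer counts. CD79A, the other tested marker, went the other way and was not called (-0.63, adjusted p = 0.0708, edgeR). With at least 10 counts in every library it was called lower (-0.63, adjusted p = 0.0468), as it was without shPRKCN library 3 (-0.79, 0.0496). Of 7 T and NK cell markers 6 were listed, summing to 7.75 to 8.37 and 20.1 to 22.7 FPKM. Nearly all of this sum was CD3E, with means of 7.93 FPKM in shNT and 21.3 in shPRKCN libraries. It was the 1 tested gene of the list and was called higher (1.40). CD3D, CD3G and CD4 had 1 count or fewer, CD8A 10 or fewer and NCR1 11 or fewer. CD14, LYZ, MS4A1, CD22, PAX5, CD3D, CD3G and CD4 were thus at or near 0. The B cell sum and CD3E moved opposite to the class II genes. The plasma cell markers by their median, CLEC9A and CD79A moved the same way as the class II genes. The part of these markers in the result was not tested.

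The genes whose profile over the 6 libraries was nearest to that of CIITA, by the Euclidean distance of log2 CPM centred on each gene's mean, were SEL1L (distance 0.0882), MKI67 (0.115) and PDLIM3 (0.132). Their log2 fold changes were -1.28, -1.33 and -1.43, against -1.32 for CIITA, and the likeness rests on the difference between 2 groups of 3 libraries. None of the class II chains was among these 3.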

How the data were processed

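RNA of MM.1S cells was sequenced in 6 libraries, grouped as shNT and shPRKCN by the treatment given in the labels, 3 each. The authors deposited raw read counts per gene and FPKM values for the same genes. The deposited FPKM follow from the counts, the library totals and 1 length per gene in 19668 of 19668 genes with counts in at least 2 libraries (relative tolerance 0.001). The submitters' processing notes name FastQC, HISAT2, StringTie and GRCh38.p14, with no roles. Strandedness is not given in the sources used here.

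In R 4.3.3, edgeR 4.0.16 scaled the counts by TMM and ran its quasi-likelihood test over the 13971 genes kept by filterByExpr, with Benjamini-Hochberg adjustment over all of them. A call required both limits of the study's methods, 0.05 for the adjusted p and 0.58 for the size of the log2 fold change. The SE is the log2 fold change divided by the square root of F. Steps were tested on simulated data. The alternatives changed the tool (DESeq2 1.42.0, or limma 3.58.1 on log2 FPKM with a pseudocount of 1 or 0.1), the scaling (upper quartile, RLE, library totals), the filter (none, or 10 counts in each library), the design (replicate number as block, 1 library left out) or the fold limit (none). Sums and ratios of FPKM were compared by exact permutation (scipy 1.17.1). Libraries of a group differed by more than sampling noise (chi-square per degree of freedom 3.485 to 5.008), so none repeats another.

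The genes, lists and tests were chosen with earlier results of these data known, so counts over lists are descriptions. Named were the 10 genes, PRKD3, the called genes of the lists and of the region, the tested genes of the enhanceosome, interferon-γ and B cell regulator lists (some items are not reported here), and the 3 genes nearest to CIITA with a mean of at least 50 counts. Others were added after their values were seen. Promoters are RefSeq (GRCh38.p14), and shared 50-base stretches were counted in GENCODE release 29 transcripts.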

Additional observations from a re-analysis of the deposited data

How the results depend on the processing

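None of the 135 values of the 10 genes under alternatives changed direction. With 5 of the 10 genes called lower, the alternatives gave 4 to 9, the 9 with no fold limit, and leaving out 1 library gave 5 to 6, HLA-DMA being the gene gained (-0.59 without shNT library 3, -0.60 without shPRKCN library 2). HLA-DQB1 was lost on log2(FPKM + 1), at -0.41, and could not be tested with at least 10 counts in every library. Over all genes, 859 higher and 1475 lower calls became 317 and 651 with limma on log2(FPKM + 1), and 3700 and 3877 with no fold limit. Leaving out 1 library gave 815 to 874 higher and 1437 to 1487 lower. Over the pathway lists, 4 higher and 8 lower calls became 18 and 18 with no fold limit, and 5 lower with limma on log2(FPKM + 1), where JAK2, SPI1, CTSV, CD274 and the neighbouring gene LOC100294145 fell under the fold limit. Leaving out 1 library gave 4 to 4 higher and 7 to 9 lower, with CD80 gained at -1.72 without shPRKCN library 1. The PRKD3 value ran from -1.31 to -1.25, the chain sum from -0.82 to -0.79 and CD74 per chain from 0.40 to 0.43 without 1 library.

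Replicate numbers are shared by both groups, but same-numbered libraries did not deviate together (correlations -0.059, -0.020 and -0.016), so the numbers do not pair the samples. With the replicate block 854 genes were called higher and 1463 lower, 5 of the 10 genes were called lower, and CIITA had -1.32. No scaling moved the median log2 fold change of all genes by more than 0.1. Low counts limited what could be said of HLA-DQA1 and HLA-DQB1, and the floor of 3 counts covers counting error only.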
